A study of Mus musculus with 6 samples.

Results

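The Tceal and Bex genes are small X-linked neighbours, and 10 of them were followed here in mouse blastocysts: Tceal1, Tceal3, Tceal5, Tceal6, Tceal7, Tceal8, Tceal9, Bex1, Bex2 and Bex4. They were taken by symbol from a table of 49993 genes. The family was chosen by the measured values of Tceal9, which lay far higher in cultured than in flushed embryos, and the others are its neighbours and relatives. Tceal9's own values are therefore given as a description without a test. Bex3 and Bex6, which complete the mouse Bex genes of the table, are given beside the 10.

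Tceal genes are named for their likeness to transcription elongation factor A, the factor that helps a stalled RNA polymerase II resume, and Bex genes for their high expression in brain. Both groups encode short proteins that are found in placental mammals, sit in one cluster with the Armcx, Gprasp and Arxes genes, and are thought to have arisen from shared ancestors. Bex3, also called Nade or Ngfrap1, binds the intracellular part of the p75 neurotrophin receptor. Tceal9, also called Wbp5, was first described as a protein that binds WW domains. Bex and Tceal genes are best known from neurons, and little of their work in the blastocyst is textbook knowledge.

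Cultured and flushed blastocysts were compared, with 3 libraries in each group. To superovulate them, all females were given 10 IU PMSG (a mare serum gonadotrophin) followed after 48 h by 10 IU hCG (chorionic gonadotrophin), and were then mated. In the in vitro group, zygotes fertilised in the female were taken from the oviduct 19 to 21 h after hCG and grown to blastocysts in KSOM, a potassium-enriched medium, at 37 °C under 5% CO2. In the in vivo group, the uterus was flushed for blastocysts on day 3.5. No label used here gives the age at which cultured blastocysts were frozen, so culture and age at collection cannot be told apart. No strain or genotype is given in the labels, and nothing states that each library had its own mother, so the spread behind each p-value is that of these samples alone and may be partly technical. The labels name the material in 3 ways, as 1 inner cell mass per library, as blastocysts and as embryonic stem cells. Gata3, a transcription factor of the trophectoderm, which the inner cell mass should lack, was present in each library at 275, 260 and 191 CPM (counts scaled to library size) in vitro and at 150, 131 and 98.3 CPM in vivo. These are bulk libraries, so fewer cells of a type and less RNA per cell cannot be told apart.

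Libraries held between 6918288 and 12735551 counts in vitro and between 9174789 and 17643429 counts in vivo. The in vitro libraries had counts for between 16996 and 20291 genes, and the in vivo libraries for 20867, 20316 and, in replicate 3, the deepest, 16977 genes. The share of 18S ribosomal RNA was 36.1%, 35.8% and 40.4% in vitro, against 16.7%, 22.2% and 41.7% in vivo, so in vivo replicate 3 lay with the in vitro libraries in this. The part of the 18S share in the results was not tested, and values without in vivo replicate 3 are given below. In vivo replicate 3 also had 0 counts of every member. Among the 14301 genes tested, 8.41% were at 0 in in vivo replicate 3, against between 0.552% and 6.88% in each of the other 5 libraries. The cluster is X-linked, and in vitro replicate 2 was the one library without a Y chromosome signal. It had 1 count over 4 Y-linked genes and 7494 counts of Xist, which coats and silences an X chromosome, whereas the other 5 libraries had between 1139 and 1693 Y-linked counts and between 8 and 341 Xist counts. All values below rest on counts per gene, and where a library shows 0 counts, levels of up to 0.527 CPM in the shallowest and 0.216 CPM in the deepest library (3 counts) are allowed.

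Tceal9 dominated the family. The 10 genes together had 1149, 1000 and 3451 counts in the in vitro libraries, against 50, 36 and 0 counts in the in vivo libraries, and Tceal9 supplied 89.0% of the in vitro counts. Without it, 167, 75 and 372 counts were left in vitro, against 6, 15 and 0 in vivo. Of the 10 members, 6 had at least 1 count, 5 had more than 3 counts in all, and 4 had values in the in vitro group that lay wholly above those in the in vivo group (Tceal9, Tceal8, Bex1 and Bex4). None lay wholly below. Over the 23606 genes of the table with more than 3 counts in all, 6.63% lay wholly above and 7.84% wholly below. Since this contrast chose the family, nothing is read from the members' share. Per kilobase of transcript, the mean in vitro levels ran in the order Tceal9 (211 CPM per kb), Bex1 (17.2), Bex2 (5.08), Bex4 (3.94) and Tceal8 (2.11). Only the step below Tceal9 was free of overlap between libraries. The lowest Tceal9 level in vitro, 66.8 CPM per kb, exceeded the highest Bex1 level, 43.2 CPM per kb, whereas the ranges of Bex1, Bex2 and Bex4 overlapped each other, and that of Tceal8 (0.873 to 3.58 CPM per kb) overlapped all 3.

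**Figure D1:**
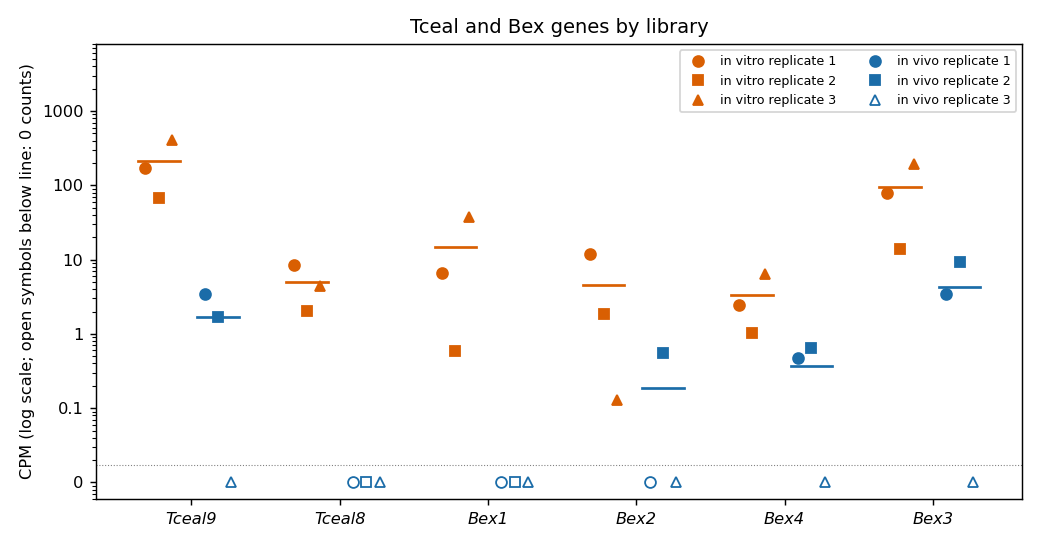
Expression in CPM (log axis) of the 5 members with more than 3 counts and of Bex3, for the in vitro libraries (orange) and the in vivo libraries (blue) of each replicate number; bars mark group means, and open symbols under the dotted line mark 0 counts. In vivo replicate 3 is at 0 for every gene shown, and Bex2 is the one gene whose groups overlap.

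Members share a short stretch of sequence at their starts, shown here because members with counts and members without counts both hold it. Capitals mark TGACG and, after a spacer, CANGTGA; all lines are 5′ to 3′ on the gene's strand, from RefSeq on GRCm38.p6. Armcx1, of a neighbouring gene family, is given for comparison.
Tceal9 (chrX:136245072-136245099, plus strand): ctggTGACGtagatctCATGTGAccagg
Tceal8 (chrX:136172223-136172250, minus strand): ttgaTGACGcgatcctCACGTGAccagc
Tceal5 (chrX:136203888-136203915, minus strand): ctggTGACGttcctgtCACGTGAtcagg
Tceal6 (chrX:135210690-135210717, minus strand): agggTGACGctttgctCACGTGActggc
Tceal3 (chrX:136666362-136666389, plus strand): cgggTGACGcggtgttCACGTGAccggc
Tceal1 (chrX:136707963-136707992, plus strand): gctgTGACGcgctcccctCACGTGAccagg
Bex1 (chrX:136215505-136215532, minus strand): cttcTGACGcaagtggCACGTGActagc
Bex4 (chrX:136138971-136138998, plus strand): cttcTGACGcaagtggCACGTGActagc
Bex3 (chrX:136270262-136270291, plus strand): gcagTGACGcagggccctCACGTGAcccgg
Armcx1 (chrX:134717919-134717946, plus strand): ctggTGACGtgcccctCACGTGAgccga

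The pair of blocks was noticed in these sequences, written as the letters that Tceal9, Tceal8 and Bex4 share, and then searched on both strands of the windows that run from 250 bases before to 50 bases after each annotated start. Written TGACGNNNNNNNCANGTGA, with 7 bases between the blocks, it was found for 7 of the 10 members (Tceal3, Tceal5, Tceal6, Tceal8, Tceal9, Bex1 and Bex4) and in 16 of 32851 windows of all genes (0.0487%). With 9 bases between the blocks (TGACGNNNNNNNNNCANGTGA) it was found for Tceal1 and for Bex3 and in 9 windows of all genes (0.0274%). Either form was present in windows of 23 of 27025 genes (0.0851%). Of these, 14 are X-linked, 9 are Tceal or Bex genes, and 3 are Armcx genes (Armcx1, Armcx4 and Armcx6). Neither form was found in the windows of Tceal7, Bex2 and Bex6, which says only that these letters are not in those windows. The shorter TGACG was in 20.8% of all windows and the palindrome CACGTG, which overlaps the second block, in 7.15%. Tceal1, Tceal3 and Tceal6 hold the pair and had 0 counts in each library, while Bex2 lacks it and had counts. That Tceal9, Tceal8 and Bex4 hold it was fixed by the choice of letters, and the window of Bex1 is a near copy of that of Bex4. Carriers with and without counts therefore cannot be compared, and a link between the pair and expression was not tested.

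The start of Tceal9 is given at more length because most of the family's counts come from it. The window covers chrX:136244830-136245104 (plus strand, GRCm38.p6), from 250 bases before the first annotated base to 25 bases after it, with the same 2 blocks in capitals.
Tceal9 start: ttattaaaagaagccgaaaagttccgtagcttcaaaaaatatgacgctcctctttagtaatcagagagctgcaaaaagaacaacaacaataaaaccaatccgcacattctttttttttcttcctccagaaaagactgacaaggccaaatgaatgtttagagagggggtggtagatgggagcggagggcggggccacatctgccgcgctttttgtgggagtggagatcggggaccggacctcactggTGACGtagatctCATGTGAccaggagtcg
Windows of Bex1 and Bex4 were near copies, with 288 identical bases of 294 compared (98.0%) and 271 of them in 1 unbroken run. Bex2 and Bex3 matched at 84.8% of 263 bases. Tceal8 and Tceal9, the expressed Tceal genes, shared no run longer than 17 bases.

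**Figure D2:**
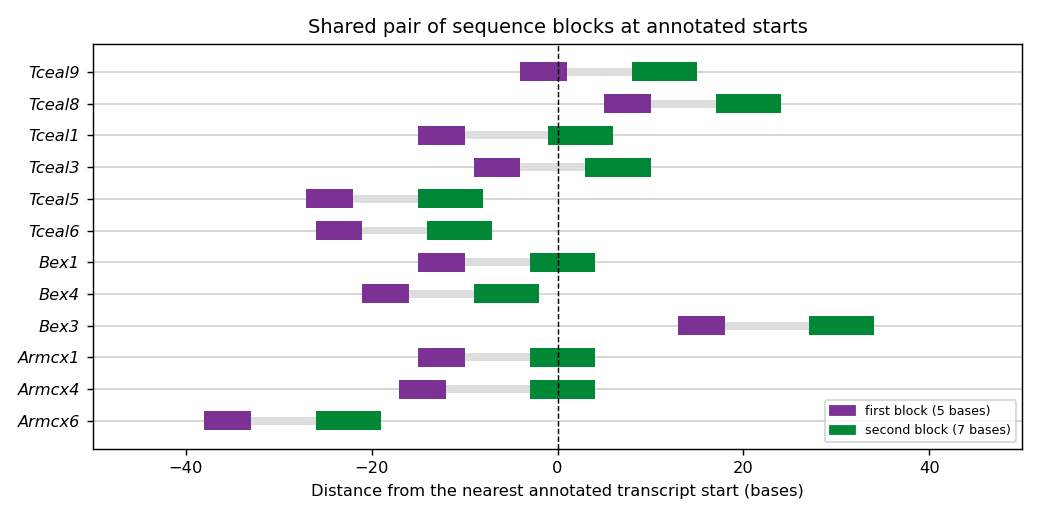
Position of the first block (5 bases, purple) and the second block (7 bases, green) relative to the nearest annotated transcript start of each gene (dashed line), in bases, for the Tceal, Bex and Armcx genes that hold the pair. The first block begins between 38 bases before (Armcx6) and 13 bases after (Bex3) the start shown; Tceal3 and Tceal5 each have a further start, farther from the pair, that is not drawn.

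Tceal9 (chrX:136245080-136247139, plus strand, 1018 bases of exon) had 982, 925 and 3079 counts in vitro, against 44, 21 and 0 counts in vivo. As CPM this was 172, 68.0 and 402 in vitro, against 3.45, 1.68 and 0 in vivo. Each in vitro library stood far above each in vivo library. The means were 214 ± 171 CPM in vitro and 1.71 ± 1.73 CPM in vivo (SD, n = 3 each). Pooled over the libraries of a group, counts per scaled total had a ratio of 111, with a 95% exact binomial counting interval of 87.2 to 144. The fit gave 6.97 as the log2 fold change, which here and below runs as in vitro over in vivo. Since Tceal9's values chose the family, the log2 fold change and the counting interval are description only. This pooled ratio was 59.5 when in vitro replicate 3 was left out, and 183 when in vitro replicate 2 was. It was 71.8 with in vivo replicate 3 left out and 232 with in vivo replicate 1 left out. No stretch of 50 bases in its GENCODE transcripts occurs in another gene's transcripts, so its reads are not shared with the rest of the family at that length.

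Tceal8 (chrX:136168984-136172251, minus strand, 2358 bases of exon) was the other Tceal gene with a clear signal. It had 48, 28 and 34 counts in vitro, against 0, 0 and 0 counts in vivo, which is 8.43, 2.06 and 4.44 CPM in vitro. Every in vitro library held it and no in vivo library did. Its mean was 4.98 ± 3.22 CPM in vitro (SD, n = 3). Pooled over libraries, it was at least 53.2-fold higher than in vivo when the in vivo group is set at 3 counts in all, with bounds between 34.3-fold (without in vivo replicate 3) and 80.2-fold (without in vitro replicate 2) when 1 library was left out. By edgeR (quasi-likelihood, Benjamini-Hochberg over 14301 genes) the adjusted p was 0.315 (unadjusted p = 0.00204 from the same edgeR fit). That test called 0 genes in all (0%), while 10.2% of genes had an unadjusted p under 0.05. DESeq2, which called 2.82% of the 16293 genes it adjusted over, gave Tceal8 an adjusted p of 0.000165. With any one library left out, DESeq2's adjusted p for Tceal8 lay between 0.000349 and 0.0274. In limma-voom with quality weights, which called 0.713% of genes, Tceal8 had an adjusted p of 0.0434. Members other than Tceal9 that passed numbered 0 in edgeR, 2 in DESeq2 (Tceal8 and Bex1) and 1 in limma-voom. Run on all genes with any count, edgeR called 2 members and 1.4% of genes, and its newer quasi-likelihood form called 0 members and 0.021% of genes. Tceal8 passed the filter on low counts through the in vitro libraries alone.

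The remaining Tceal genes were near or at 0. Tceal5 (chrX:136200948-136203884) had 2 counts, both in in vitro replicate 3, and Tceal1 (chrX:136707982-136709873), Tceal3 (chrX:136590837-136668378), Tceal6 (chrX:135208686-135210687) and Tceal7 (chrX:136224041-136226100) had 0 counts in each of the 6 libraries. Transcripts of Tceal3, Tceal5 and Tceal6 share 50-base stretches with each other, at 12.9%, 25.4% and 45.3% of their stretches in that order, so the counts of these 3 genes are uncertain. Tceal1 and Tceal7 share none. By position, Tceal6 comes first of the members and Tceal3 and Tceal1 come last, all with 0 counts. Tceal7 lies between Bex1 and Tceal9, and only it had 0 counts among the members in the middle.

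Among Bex genes, Bex1 (chrX:136213972-136215513, minus strand, 866 bases of exon) showed the same split as Tceal8. It had 38, 8 and 286 counts in vitro, against 0, 0 and 0 counts in vivo, or 6.67, 0.588 and 37.4 CPM in vitro. All in vitro libraries held it and no in vivo library did, but in vitro replicate 3 carried most of the counts. Its mean was 14.9 ± 19.7 CPM in vitro (SD, n = 3). Pooled in the same way, it was at least 161-fold higher than in vivo. The bound was 31.1-fold with in vitro replicate 3 left out, 317-fold with in vitro replicate 2 left out and 104-fold with in vivo replicate 3 left out. The filter on low counts left Bex1 out of edgeR's test. DESeq2, which filters low counts in another way, gave a log2 fold change of 10.06 ± 1.77 (SE) and an adjusted p of 1.23e-05. That call was lost without in vitro replicate 1 (DESeq2 adjusted p = 0.163) and kept without any of the others (DESeq2 adjusted p between 2.02e-07 and 0.0298). Bex1 passed DESeq2's filter through its in vitro libraries alone, so no direction is read from these calls. Counts in all in vitro libraries with 0 in all in vivo libraries, the pattern of Tceal8 and Bex1, were seen for 68 of the 23606 genes with more than 3 counts (0.288%), and the mirror pattern for 203 (0.86%). Of the 50-base stretches in Bex1 transcripts, 21.1% also occur in Bex2 or Bex4.

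Bex2 (chrX:136066565-136068236, minus strand, 902 bases of exon) differed from the other detected members in that its groups overlapped. It had 67, 25 and 1 counts in vitro, against 0, 7 and 0 counts in vivo, or 11.8, 1.84 and 0.131 CPM in vitro, against 0, 0.561 and 0 CPM in vivo. In vitro replicate 3, the library highest in Tceal9 and Bex1, was the lowest of its group for Bex2 and fell below in vivo replicate 2. The pooled ratio was 19.3, with 6.84 for the libraries other than in vitro replicate 1 and 12.4 for those other than in vivo replicate 3. DESeq2 gave an adjusted p of 0.163, and of 0.0438 without in vivo replicate 2, where the in vivo libraries left have 0 counts. The edgeR test left Bex2 out for low counts.

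Bex4 (chrX:136138996-136140443, plus strand, 837 bases of exon) had 14, 14 and 49 counts in vitro, against 6, 8 and 0 counts in vivo. In CPM it had 2.46, 1.03 and 6.41 in vitro, against 0.471, 0.641 and 0 in vivo. The groups did not overlap, but in vitro replicate 2 and in vivo replicate 2 lay close together. Its mean was 3.30 ± 2.78 CPM in vitro and 0.371 ± 0.332 CPM in vivo (SD, n = 3 each), and the pooled ratio was 7.99 (counting interval 4.48 to 15.3). The log2 fold change was 3.12 ± 1.61 (SE), and the difference did not pass (edgeR adjusted p = 0.547, DESeq2 adjusted p = 0.223, limma adjusted p = 0.397). The pooled ratio was 4.05 when in vitro replicate 3 was left out and 13.2 when in vitro replicate 2 was. It was 5.15 with in vivo replicate 3 left out and 12.7 with in vivo replicate 2 left out. Of its 50-base stretches, 49.7% also occur in Bex1 or in the predicted genes Gm4322 on chromosome 1 and Gm12245 on chromosome 11, so its counts are uncertain. Gm4322 had 5, 11 and 29 counts in vitro, against 1, 5 and 0 in vivo, and was highest in the same library of each group as Bex4. Bex4, like Tceal8, entered the test through its in vitro libraries.

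Bex3 (chrX:136270253-136271978, plus strand), the receptor-binding member next to Tceal9, had 447, 190 and 1498 counts in vitro, against 44, 115 and 0 counts in vivo. Its levels were 78.5, 14.0 and 196 CPM in vitro, against 3.45, 9.22 and 0 CPM in vivo, and the groups did not overlap. The log2 fold change was 4.51 ± 1.38 (SE) with an edgeR adjusted p of 0.374 and a DESeq2 adjusted p of 0.183. Without in vivo replicate 3, DESeq2's adjusted p was 0.000829. The pooled ratio, 19.5, was 8.12 with in vitro replicate 3 left out and 35.9 with in vitro replicate 2 left out. It was 48.0 with in vivo replicate 2 left out and 12.6 with in vivo replicate 3 left out. Bex6, the Bex gene outside the cluster (chr16:32179800-32186944), had 0, 16 and 0 counts in vitro, against 18, 28 and 0 in vivo. Its groups overlapped, and its log2 fold change of −1.51 ± 2.02 (SE) had an edgeR adjusted p of 0.847. The log2 fold change was −6.70 without in vitro replicate 2, the one in vitro library with counts (edgeR adjusted p = 0.477).

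Across the cluster, the members span 1501 kb of chromosome X. The table lists 105 other genes in that span or within 500 kb of it, of which 58 had 0 counts in every library and 12 entered the test. Since several entered through their in vitro counts, no direction is read over these 12, and edgeR called 0 of them. Over the 105 genes, DESeq2 called 3 as higher in vitro (Arxes2, Gprasp2 and Nxf7) and 0 as lower. It called 1.55% of all genes it adjusted over as higher in vitro. Gprasp2 is not among the 12. Over all genes tested, 49.8% were positive and the median was −0.01. Over the 559 X-linked genes tested, 53.3% were positive and the median was 0.05. Members that overlap another gene (Tceal1, Bex1 and Bex4) overlap genes with 0 counts, and without strand information reads in an overlap cannot be told apart.

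Genes of the neighbouring families were mixed. Arxes2, a small gene of the same cluster, had 16.2, 3.01 and 4.44 CPM in vitro, against 0, 0 and 0 CPM in vivo (edgeR adjusted p = 0.306, DESeq2 adjusted p = 1.28e-05). Its pooled level was at least 80.8-fold higher, and the bound was 46.0-fold with in vitro replicate 1 left out and 123-fold with in vitro replicate 2 left out. Gprasp1, which encodes a sorting protein for G protein-coupled receptors, had 20.0, 6.03 and 28.5 CPM in vitro, against 4.08, 3.45 and 0 CPM in vivo (log2 fold change 2.85 ± 1.30, edgeR adjusted p = 0.500). Bhlhb9, also known as Gprasp3, had 8.61, 9.92 and 14.5 CPM in vitro, against 0.784, 4.09 and 0 CPM in vivo (edgeR adjusted p = 0.539). Armcx5 had 6.85, 1.25 and 6.80 CPM in vitro and 4.94, 3.61 and 5.90 CPM in vivo, overlapping groups and a log2 fold change of 0.04 ± 0.94 (SE). It was present in in vivo replicate 3, unlike the family. In all, edgeR tested 4 of the 11 genes of these families, Arxes2 through its in vitro libraries alone, and called 0. DESeq2 called 2 of the 11 as higher in vitro (Arxes2 and Gprasp2), against 1.55% of all genes it adjusted over. Gprasp2, which edgeR's filter left out, had 11.2, 2.57 and 0.915 CPM in vitro, against 0.0784, 0 and 0 CPM in vivo. Both passed DESeq2's filter through their in vitro libraries, so nothing is read from these 2 calls. Outside these families, the nuclear export factor gene Nxf7 had 19.0, 26.5 and 14.6 CPM in vitro, against 2.74, 2.32 and 0 CPM in vivo (edgeR adjusted p = 0.403, DESeq2 adjusted p = 0.0319). Morf4l2, a chromatin gene at the far end of the cluster named after its values were seen, had 81.0, 97.1 and 286 CPM in vitro and 223, 229 and 142 CPM in vivo, with groups that overlapped.

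**Figure D3:**
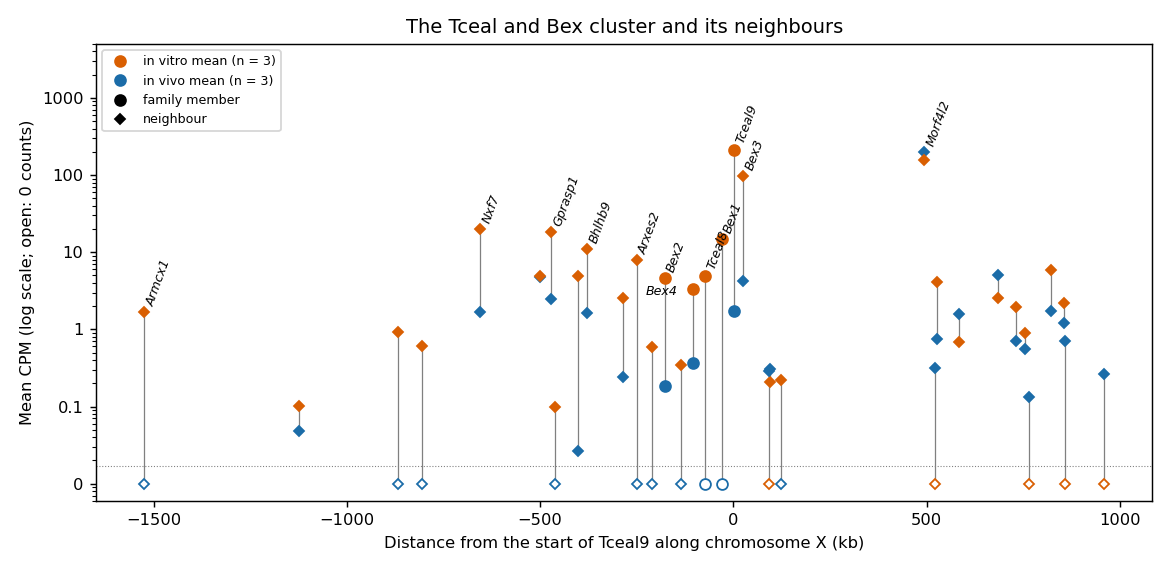
Mean CPM (log axis, open symbols for 0 counts) of the members (circles) and of the neighbouring genes with more than 3 counts (diamonds) in the in vitro group (orange) and the in vivo group (blue), by distance in kb from the start of Tceal9. Tceal9 and Bex3 lie well above their in vivo means, while Morf4l2 is higher in the in vivo mean.

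Summed primitive endoderm markers separated the groups, while the sums of the other marker lists overlapped. Their part in the family's values was not tested. The 10 primitive endoderm markers summed to 1036, 751 and 728 CPM in vitro, against 384, 329 and 496 CPM in vivo, without overlap, and none was at 0 throughout. Log2 fold changes were above 0 for 9 of these and below 0 for 1 (median 1.11), and 0 passed edgeR's test. DESeq2 called 4 higher, against 1.55% of all genes it adjusted over, and 1 lower. Of the 9, Sox7 and Foxa2 entered the test through their in vitro libraries, so nothing is read from their direction. Sox7, a transcription factor of that lineage, had 19.7, 31.2 and 4.18 CPM in vitro, against 0, 0 and 0.0719 CPM in vivo (DESeq2 adjusted p = 4.67e-07). Foxa2, another endoderm factor, had 34.4, 3.97 and 2.88 CPM in vitro, against 0 in each in vivo library (DESeq2 adjusted p = 2.74e-06). Lama1, a basement membrane laminin chain, had 222, 119 and 51.1 CPM in vitro, against 15.5, 4.49 and 24.0 CPM in vivo (DESeq2 adjusted p = 0.00147). Hnf4a, the marker called lower, had 0.176, 1.98 and 1.70 CPM in vitro, against 9.49, 9.54 and 20.2 CPM in vivo, without overlap (DESeq2 adjusted p = 0.00953). The summed level was highest in in vitro replicate 1, as were Tceal8 and Bex2, while Tceal9, Bex1, Bex4 and Bex3 were highest in in vitro replicate 3. Single markers differed in this, with Sox7 highest in in vitro replicate 2.

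The 10 trophectoderm markers summed to 1301, 2298 and 2453 CPM in vitro, against 1456, 882 and 698 CPM in vivo, and the groups overlapped (8 positive, 2 negative, median 0.87). Id2 had 351, 604 and 812 CPM in vitro, against 193, 181 and 111 CPM in vivo (DESeq2 adjusted p = 0.00538). The 8 epiblast markers summed to 1063, 588 and 480 CPM in vitro, against 618, 684 and 612 CPM in vivo, with 4 positive, 4 negative and a median of 0.19. Sox2, a pluripotency factor, had a log2 fold change of 1.35 ± 0.52 and Pou5f1 one of −0.88 ± 0.41 (SE), and neither passed (edgeR adjusted p = 0.437 and 0.505).

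Neuronal markers, from the cells where Bex and Tceal genes are best known, were low. The 7 markers summed to 25.5, 7.64 and 1.83 CPM in vitro, against 0.392, 6.73 and 0.144 CPM in vivo, and the defining synaptic and growth cone genes Snap25 and Gap43 were at 0 in every library. Nefl, a neurofilament chain, had 14.4, 4.41 and 1.31 CPM in vitro, against 0.0784, 0 and 0.0719 CPM in vivo (DESeq2 adjusted p = 0.000738). Stmn2, a tubulin-binding protein of growing neurites, had 4.39, 1.54 and 0.392 CPM in vitro, against 0 in each in vivo library (DESeq2 adjusted p = 0.0317). Tubb3, a neuronal tubulin, had 6.67, 1.18 and 0 CPM in vitro, against 0.235, 0.0802 and 0 CPM in vivo (DESeq2 adjusted p = 0.201). Syp had 0, 0.367 and 0 CPM in vitro, against 0, 4.49 and 0.0719 CPM in vivo. Map2 had 0, 0.147 and 0.131 CPM in vitro, against 0.0784, 2.16 and 0 CPM in vivo. DESeq2 thus called 2 of the 7 higher, against 1.55% of all genes it adjusted over, and 0 lower. Of the 7, edgeR tested 1 (Nefl) and called 0. Nefl and Stmn2 passed filters on low counts through their in vitro libraries, so no direction is read from these 2 calls. In vitro, the summed markers had the library order of Bex2 and not that of Tceal9. Of 8 cumulus cell markers 6 were at 0 throughout, Has2, Ptx3 and Amh among them, and the list summed to at most 0.654 CPM. Of 6 blood cell markers 4 were at 0 throughout, and the sum was at most 2.80 CPM. The 9 uterine and oviduct markers summed to 33.9, 46.6 and 9.93 CPM in vitro, against 35.8, 10.0 and 26.8 CPM in vivo, with Ltf, Pgr, Krt5 and Dcn at 0. Of these, the mucin gene Muc1 had 0.176, 2.65 and 0.131 CPM in vitro, against 10.4, 4.65 and 15.5 CPM in vivo, without overlap (edgeR adjusted p = 0.440, DESeq2 adjusted p = 0.0788). Wfdc2 had 31.1, 41.4 and 9.54 CPM in vitro, against 24.3, 3.93 and 11.4 CPM in vivo, with overlap.

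**Figure D4:**
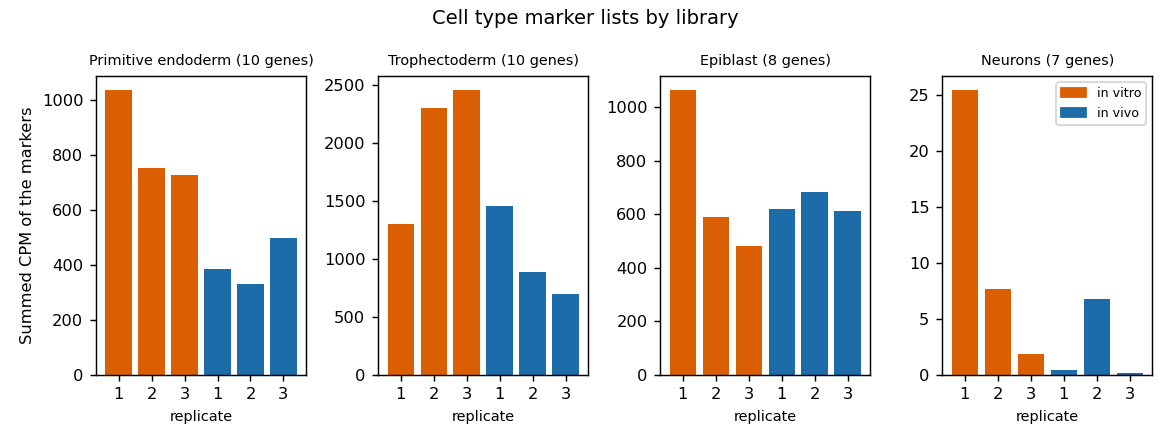
Summed CPM of 4 marker lists in each library, in vitro (orange, replicates 1 to 3) left of in vivo (blue, replicates 1 to 3); the vertical scales differ between panels. Primitive endoderm sums separate the groups, while the other 3 overlap.

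The elongation machinery that gave the Tceal genes their name had log2 fold changes on both sides of 0. Of 27 elongation factor genes found by symbol, 25 were tested, with values above 0 for 16 and below 0 for 9 (median 0.14), and 0 passed edgeR's or DESeq2's test. The smallest p belonged to Cdk9, the kinase of the elongation factor P-TEFb, with 51.1, 40.9 and 58.4 CPM in vitro, against 33.8, 28.4 and 17.1 CPM in vivo (log2 fold change 0.92 ± 0.40, edgeR adjusted p = 0.479). The scaffold genes Aff1 and Aff4 followed, at 0.82 ± 0.36 and 0.83 ± 0.42 (SE). Ell3 lay farthest from 0, at −1.07 ± 1.16 (SE), with groups that overlapped. Groups did not overlap for 2 genes higher in vitro (Cdk9 and Aff1) and for 1 lower, Supt6, at −0.75 ± 0.42 (SE).

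Of the neurotrophin pathway that Bex3 is known from, several members had no counts. Ngfr, which encodes the p75 receptor, and the ligands Bdnf and Ntf3 had 0 counts in each library. Of 14 genes found by symbol, 6 were tested, Bex3 among them, and 0 passed edgeR's or DESeq2's test. Maged1, also called Nrage, which like Bex3 binds p75, had 55.5, 21.7 and 39.6 CPM in vitro, against 24.2, 12.7 and 7.91 CPM in vivo (log2 fold change 1.38 ± 0.56, edgeR adjusted p = 0.456). Irak1, a signalling kinase, had a log2 fold change of 0.46 ± 0.47 (SE) and overlapping groups.

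The genes most like Tceal9 across the 6 libraries were ranked by Pearson's r of log2 CPM, as a description of libraries that also share the group difference. The ranking covered 6860 genes with an assigned symbol and a mean CPM above a set minimum. Vasp, an actin regulator, came first at r = 0.995, followed by Plscr1 (0.992), Cdc14a (0.991), Stk17b (0.991) and Irf2bpl (0.988). Vasp had 62.7, 51.6 and 66.9 CPM in vitro, against 35.1, 28.4 and 22.4 CPM in vivo, so its order over the libraries was that of Tceal9 but its range far narrower. Cdc14a, a phosphatase gene, had 19.3, 13.3 and 30.3 CPM in vitro, against 1.57, 1.52 and 0 CPM in vivo. Bex3 (r = 0.940) ranked 97. Bex4 (0.949) and Tceal8 (0.923) lay below the minimum and were only placed against the ranked genes by r, at 73 and 148. Bex1 and Bex2, which edgeR's filter left out, were not compared.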

How the data were processed

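RNA of frozen mouse blastocysts was extracted with a microscale kit and made into libraries by transposase tagging, which keeps no strand information (per the labels' protocols). Raw counts per gene are what the authors deposited. Per the submitters' processing notes, FastQC 0.11.2, DESeq2 and GRCm39 were used, while aligner and counter are not given there. The coordinates in the deposited count table equal those of RefSeq on GRCm38.p6 for 47548 of 49989 genes compared and for 10 of 10 members, so coordinates are given on GRCm38.

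Libraries were grouped by their titles. Counts were analysed with edgeR 4.0.16 in R 4.3.3: filter on low counts by group, TMM scaling, legacy quasi-likelihood F-test, two-sided, with robust moderation (common biological coefficient of variation 0.727), Benjamini-Hochberg adjustment over 14301 genes, threshold 0.05. SEs derive from the F statistic. DESeq2 1.42.0 and limma 3.58.1 were run beside it. CPM use TMM-scaled totals, ribosomal RNA included. Correlations use a prior count of 2. Lower bounds set a group of 0 counts at 3 counts. Intervals and floors cover counting error only, since PCR copies were not removed by molecular identifiers. The main edgeR, DESeq2 and limma-voom fits were run on simulated data first, and the other settings were not. The power they had to reach was set only at a spread below that of these data, so power here is not shown.

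The members, gene lists and the rule for named genes (all members, Bex3, Bex6, and from each list the 3 tested genes of smallest p) were chosen with earlier results of these data known. Other genes of the lists, such as Stmn2, Tubb3, Syp, Map2 and Hnf4a, are named outside that rule. Of the same-numbered pairs, deviations from group means correlated at −0.10, 0.10 and −0.04, and pairs of unlike number reached 0.116. With 3 libraries in each group this cannot decide whether the numbers pair the libraries, and the labels do not say. Sequences are from RefSeq promoter windows on GRCm38.p6, and shared stretches were counted in GENCODE M21 transcripts. Some genes of the neurotrophin list are not reported here by name.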

Additional observations from a re-analysis of the deposited data

How the results depend on the processing

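The main test called 0 genes and neither of the 2 members it tested other than Tceal9 (Tceal8 and Bex4). With no filter on low counts, 391 genes and 2 members were called by edgeR, by DESeq2 459 and 2, by limma-voom 102 and 1, and by edgeR's newer form 3 genes and 0 members; the cause was not tested. The calls by DESeq2 were Tceal8 and Bex1, and that by limma was Tceal8. With 1 library left out, edgeR called 0 genes and 0 members each time, and DESeq2 between 1 and 3 members. The share of all genes that DESeq2 called in those fits was not counted, so nothing is read from these member counts. Leaving out in vivo replicate 3 and in vitro replicate 2 together, chosen after the data were seen, gave 0 in edgeR, as did the other scalings, no robust moderation and summed counts of near-identical copies. The stricter filter called 0 genes and left 0 of these members in the test. With the replicate number as a block, 0 genes and 0 members were called and the log2 fold changes were 6.86 for Tceal9, 8.69 for Tceal8 and 3.03 for Bex4. Ranges of the log2 fold change cover the settings that gave a value, without summed copies and without DESeq2 with 1 library left out. They ran from 6.13 to 7.97 for Tceal9, from 6.46 to 9.07 for Tceal8 and from 1.91 to 3.74 for Bex4. For Bex3 the range was 3.22 to 5.79 and for Bex6 −7.16 to −0.77, and no sign turned among these 5. Scaling by library totals alone moved the median of all genes by −0.31. A median over the members tested was planned and not run, since the filter chose those members by their in vitro values. Depth limits Tceal5, Bex2 and Bex4 most, with 2, 100 and 91 counts in all.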

Other observations

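Outside the Tceal, Bex and Armcx genes, 11 genes of the table held the paired blocks in a start window, 2 of them X-linked. Of these, 4 were tested, and their log2 fold changes had a median of −0.01. Braf, a kinase of growth factor signalling, had −0.06 ± 0.60, Ubap2 −0.06 ± 0.39, Vps33a, a vesicle tethering gene, 0.04 ± 0.58 and Rcbtb1 0.26 ± 0.79 (SE). Each had counts in all 6 libraries, in vivo replicate 3 included, with between 209 and 840 counts there. The remaining genes had few or no counts, Foxd1 and Abca12 with 0 in each library.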
